A study of Homo sapiens with 27 samples.

Results

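Wild-type ARID1A was compared with knockout in 293T cells, across 21189 genes in 6 of the 27 RNA sequencing libraries of the study. The genes were those with at least 10 counts in at least 3 of the 6 libraries, out of 67130 in the count table. The study knocked out ARID1A in human cell lines and put wild-type or mutant ARID1A back, and 18 of its libraries, in 6 groups of 3, came from 293T. 293T is a line derived from human embryonic kidney that expresses the SV40 large T antigen. The group called KO here was ARID1A knockout 293T with nothing put back, in 3 libraries. The group called WT was ARID1A knockout 293T that stably expressed Flag-tagged wild-type ARID1A from a lentivirus, also in 3 libraries. Both groups thus carried the knockout, and the restored gene was a transgene driven by a vector, whose promoter the labels do not name. The other 4 groups of 293T carried ARID1A with the substitution V2084D, G2087E, G2087R or K2025E. The treatment text of every 293T sample speaks of the other line, Huh7, so groups were taken from sample titles, with which the genotype labels go together. The labels do not say whether the 3 libraries of a group were separate cultures or clones, or whether the KO libraries came from cells given an empty vector. The p-values below therefore measure the spread between these libraries, which may be technical, and the effect of ARID1A cannot be told apart from that of a clone or of the vector.

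ARID1A is the large DNA-binding subunit of canonical BAF, a human SWI/SNF complex that uses ATP to slide and evict nucleosomes and keeps enhancers open. ARID1B can take its place in the complex, and ARID2 fills a related position in the PBAF form. BAF acts against Polycomb complexes, which hold developmental genes such as the HOX clusters silent, and ARID1A is among the chromatin genes most often mutated in cancer.

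The coding stretches below are shown because they hold the residues altered in the mutant groups, where the WT transgene has the reference residue by its label. They were read from the GENCODE 29 transcript ARID1A-201 of 2285 codons, on the plus strand of GRCh38. Both lie in exon 20, the last of 20, at chr1:26779956-26779988 (codons 2020 to 2030) and chr1:26780133-26780174 (codons 2079 to 2092). Capitals mark the lysine codon altered in K2025E in the upper stretch, and the valine codon altered in V2084D and the glycine codon altered in G2087E and G2087R in the lower.
ARID1A codons 2020 to 2030: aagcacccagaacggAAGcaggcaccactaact
ARID1A codons 2079 to 2092: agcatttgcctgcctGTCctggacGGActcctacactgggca

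The 6 libraries held 33429483 to 55539529 counts each, so counting error was small for all but the rarest transcripts. The spread between libraries was larger: the common biological coefficient of variation was 27.5%. Pairs of libraries of a group had a chi-square per degree of freedom of 16.03 to 214, where counting alone gives about 1, so no library was a copy of another. The first principal component of log2 CPM (27.9% of the variance) placed KO replicates 1 and 2 at -42.0 and -62.7, KO replicate 3 at 5.90 and WT replicates 1, 2 and 3 at 40.9, 13.6 and 44.3. The second (24.1%) set WT replicate 1 at -56.6 apart from WT replicate 3 at 67.8. KO replicate 3 thus lay nearer to WT replicate 2 than to the other KO libraries on the first component, and results are given with and without single libraries where these mattered. Of 18 markers listed for the 293 line, 17 were measured well enough to be tested. All 18 together summed to 1410 to 1757 CPM (counts per 1000000, TMM-scaled) in KO and 1144 to 1585 CPM in WT. Of that sum VIM made 487 to 810 CPM and KRT8 131 to 228 CPM. The neuronal markers NEFM, NEFH and STMN2 reached at most 1.17, 0.82 and 0.14 CPM, while NEFL was at 108 to 160 CPM. The listed markers of liver, the tissue of the other line, summed to 57.2 to 67.1 CPM in KO and 46.4 to 71.9 CPM in WT. Of that sum CPS1 made 27.3 to 50.7 CPM and GPC3 8.69 to 13.8 CPM. The defining markers AFP, APOB, APOC3, APOH, SERPINA1, FGA and FGB were at 0 in all 6 libraries, and ALB reached at most 3.77 CPM. Haematopoietic markers summed to at most 4.66 CPM and endothelial markers to at most 2.07 CPM in any library. Fibroblast markers summed to 42.2 to 70.1 CPM, nearly all of it COL1A1.

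ARID1A was the gene altered by design. Its transcript (ENSG00000117713, chromosome 1, positions 26693236 to 26782110, plus strand) stood at 139, 202 and 125 CPM in KO replicates 1 to 3. In WT it stood at 5905, 9624 and 65646 CPM. Every WT library was thus far above every KO library, but WT replicate 3 was also far above the other WT libraries. In bulk RNA, more cells with the transgene and more transcript per cell cannot be told apart. ARID1A rose by a log2 difference of 7.45 (SE 0.840, adjusted p = 0.0107, edgeR quasi-likelihood test), from a mean of 155 CPM (SD 41.0, n = 3) to 27058 CPM (SD 33469, n = 3). Without WT replicate 3 the difference was 5.62 (adjusted p = 2.23e-05). The call ended without KO replicate 3, at 7.31 (adjusted p = 0.177), and when all 18 libraries of 293T shared 1 estimate of spread, at 7.46 (adjusted p = 0.344). The KO libraries held 5965, 7003 and 6867 reads of the disrupted gene, and in WT the counts do not tell the cellular transcript from that of the transgene. The antisense transcript AL512408.1, which overlaps the 5′ end of ARID1A, had 68, 44 and 110 counts in KO and 28, 59 and 40 in WT (log2 difference -0.88, SE 0.385, adjusted p = 0.421), and it was named after its values were seen. Whether the counting used strand is not given in the sources used here.

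Beyond ARID1A, few genes passed the threshold. At an adjusted p below 0.05 in edgeR, 5 of 21189 genes were called, 0.0236%, with 3 higher in WT (0.0142%) and 2 lower (0.00944%). At an unadjusted p below 0.05 there were 2391 genes, 1216 higher (5.74%) and 1175 lower (5.55%). DESeq2 on the same genes called 153 (70 higher, 83 lower), 3 of them among the 5, and limma-voom called 1. An exact permutation test of 3 against 3 libraries cannot go below a two-sided p of 0.1, so single genes are tested here only in the fits across all genes. The 4 called transcripts other than ARID1A were rare. AL591806.2, AD000671.1 and C1orf220 overlap known protein-coding genes on the same strand. AL158151.3 and C1orf220 are annotated as long intergenic non-coding RNAs.

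AL591806.2 (ENSG00000270149), annotated as protein-coding at positions 160997957 to 161038962 on the minus strand of chromosome 1, where it overlaps F11R, had 4, 4 and 4 counts in KO and 172, 139 and 224 in WT. It rose by a log2 difference of 5.37 (SE 0.464, adjusted p = 0.00110, edgeR). It was called in 9 of the 13 alternatives that tested it, and not with limma-voom (adjusted p = 0.164), without KO replicate 3 (0.112), or with 18 or 16 libraries of 293T (0.348 and 0.386). Without any 1 WT library, it had fewer than 3 libraries with 10 counts and was not tested. F11R itself, which encodes a tight junction protein, had overlapping groups (1278, 895 and 1841 counts in KO, 1108, 1142 and 1293 in WT). AD000671.1, a read-through transcript at positions 35745678 to 35754519 on chromosome 19, over PSENEN and LIN37, had 0 counts in the 3 KO libraries and 144, 39 and 140 in WT. It was at least 101-fold higher in WT, taking 3 counts over the KO group as the floor (adjusted p = 0.0272, edgeR). This call held in 6 of 11 alternatives, and ended with limma-voom (adjusted p = 0.338), without KO replicate 3 (0.177), with offsets for transcript length and GC content (0.117) and with 18 or 16 libraries (0.344 and 0.386). DESeq2 gave it no adjusted p, and without any 1 WT library it was not tested. PSENEN, a subunit of gamma-secretase, and LIN37, a subunit of the DREAM repressor complex, differed by 0.22 (SE 0.190) and 0.29 (SE 0.269) with overlapping groups.

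Of the transcripts lower in WT, AL158151.3, at positions 129258354 to 129259846 on chromosome 9, had 76, 30 and 77 counts in KO and 0 in all 3 WT libraries. It was at least 65.3-fold lower in WT with the same floor over the WT group (adjusted p = 0.0224, edgeR). This call held in 4 of 11 alternatives, and ended with limma-voom (adjusted p = 0.0539), with offsets (0.0578), with the replicate number as a block (0.0816), with 18 libraries (0.344) and without WT replicate 1, 2 or 3 (0.0958, 0.169 and 0.0949). DESeq2 gave it no adjusted p, and without any 1 KO library it was not tested. C1orf220, at positions 178542752 to 178548889 on chromosome 1, had 164, 95 and 244 counts in KO and 12, 29 and 28 in WT, and it fell by 2.91 on the log2 scale (SE 0.398, adjusted p = 0.0325, edgeR). DESeq2 called it too (adjusted p = 4.93e-08), but the call ended in 11 of 17 alternatives. Its adjusted p was 0.164 with limma-voom, 0.0511 without a filter, 0.0816 with the replicate block, 0.0648 with offsets, and 0.344 and 0.386 with 18 and 16 libraries. It was 0.177 without KO replicate 3 and 0.219, 0.332 and 0.0949 without WT replicates 1, 2 and 3, and 0.261 without WT replicate 1 and KO replicate 3 together. C1orf220 overlaps TEX35 on the same strand. TEX35 had 11, 25 and 8 counts in KO and 14, 26 and 18 in WT, with overlapping groups (log2 difference 0.14, SE 0.695). F11R, PSENEN, LIN37 and TEX35 were named after their values were seen. How reads shared between overlapping transcripts were assigned is not given in the sources used here. The counts of AL591806.2, AD000671.1 and C1orf220 are therefore uncertain.

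**Figure D1:**
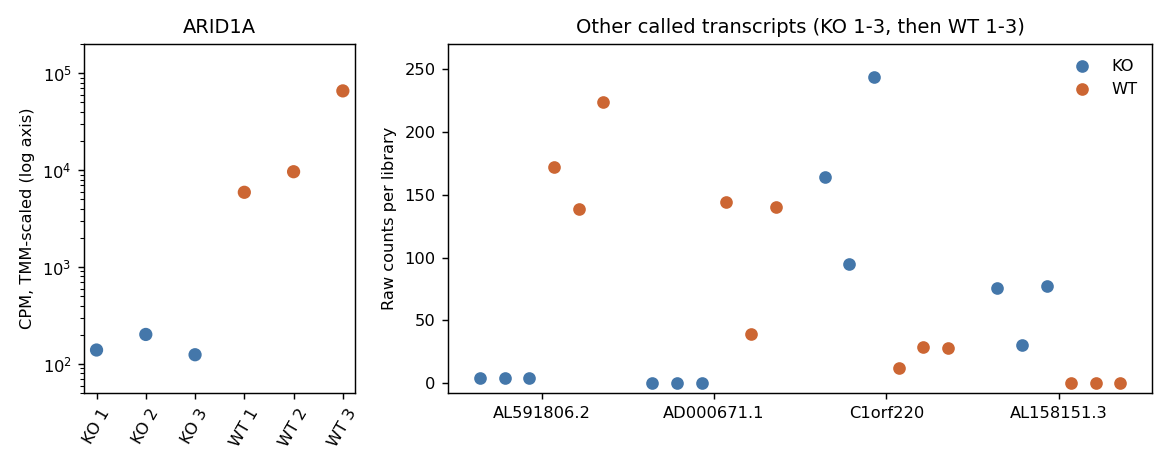
ARID1A in TMM-scaled CPM on a log axis (left) and the raw counts of the other 4 called transcripts (right), with 1 point per library and KO in blue and WT in orange. ARID1A spans 5905 to 65646 CPM within WT, and AL158151.3 and AD000671.1 are at 0 in every library of 1 group.

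The same 4 transcripts also varied between libraries of 1 group in the other 293T groups. AL591806.2 had 0, 124 and 4 counts in the 3 G2087E libraries, and 319 and 230 counts in G2087R replicates 1 and 2, where ARID1A was at 291 and 323 CPM, near the KO level. AD000671.1 had 0, 64 and 101 counts in V2084D and 96, 0 and 132 in K2025E. AL158151.3, at 0 throughout WT, had 30 to 108 counts in every other 293T library except G2087R replicate 3, which was at 0. C1orf220 had 14 to 119 counts in the 12 mutant libraries, from the WT level into the KO range. AL591806.2 fell in V2084D against WT (0 counts in all 3 V2084D libraries, adjusted p = 0.000123, edgeR), so that its high level in WT was not shared by that group. Over all genes of the table, 5 had 0 counts in every KO library and at least 10 in every WT library, and 3 had the reverse. For all 8, at least 1 of the 12 mutant libraries was at 0 and at least 1 had 10 counts or more.

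Among well-measured protein-coding genes, ARID1A alone was called in edgeR. The next 11 genes higher in WT, ranked by unadjusted p among those whose groups did not overlap, all had an adjusted p of 0.348 in edgeR. DESeq2 called all 11, with adjusted p from 0.00770 to 0.0204, and limma-voom none. The 11 were chosen by p in the same counts, so these DESeq2 calls, among 153 over 21189 genes, are not separate support. Their log2 differences were 0.71 to 1.28 in edgeR. UBE2S, a ubiquitin-conjugating enzyme that extends chains for the anaphase-promoting complex, stood at 183, 163 and 231 CPM in KO and 407, 299.96 and 375 CPM in WT (log2 difference 0.91, SE 0.196). YJU2, a splicing factor, was at 13.5, 13.9 and 16.9 CPM in KO and 29.2, 25.4 and 26.3 CPM in WT (0.87, SE 0.190). DOHH, which completes the hypusine modification of the translation factor EIF5A, was at 19.5, 21.8 and 25.5 CPM in KO and 48.8, 38.7 and 34.6 CPM in WT (0.87, SE 0.201). In these 3 genes KO replicate 3 was the highest KO library and WT replicate 1 the highest WT library.

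The remaining genes of that set came from several functions. UBE2M conjugates NEDD8 to cullins, and it was at 97.4, 90.6 and 92.8 CPM in KO and 161, 149 and 150.1 CPM in WT (0.71, SE 0.167). It had the smallest SE of the set. MRPL54 and MRPS12, proteins of the mitochondrial ribosome, differed by 0.91 (SE 0.210) and 0.84 (SE 0.201). ZNF622, a late maturation factor of the large ribosomal subunit, differed by 0.89 (SE 0.208), and DYNLL1, a dynein light chain, by 0.81 (SE 0.195). VSTM2L was at 1.85, 1.84 and 2.89 CPM in KO and 5.63, 5.29 and 5.04 CPM in WT (1.27, SE 0.282). ETV1, an ETS transcription factor, was at 3.95, 4.87 and 4.10 CPM in KO and 8.17, 7.14 and 16.1 CPM in WT (1.28, SE 0.312), with WT replicate 3 well above the others.

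The 12 genes lower in WT, chosen the same way, had adjusted p from 0.230 to 0.348 and log2 differences from -1.40 to -0.81 in edgeR. DESeq2 called all 12, with adjusted p from 0.000407 to 0.0171, and limma-voom none. Here too the DESeq2 calls rest on the counts used for the choice and are not separate support. SESN3, a sestrin that restrains mTORC1 and is induced by FOXO factors, stood at 35.6, 31.3 and 32.2 CPM in KO and 13.98, 17.1 and 16.6 CPM in WT. Its difference of -1.06 (SE 0.185, adjusted p = 0.230, edgeR) had the smallest p of the 12. SKIL, a co-repressor of SMAD signalling, was at 62.1, 58.2 and 46.8 CPM in KO and 26.1, 32.2 and 27.4 CPM in WT (-0.96, SE 0.192). ITGAV, the integrin alpha V subunit, was at 86.9, 89.6 and 80.6 CPM in KO and 39.9, 53.8 and 43.6 CPM in WT (-0.90, SE 0.187).

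The lower set also held guidance cues and cell surface receptors. SEMA3C and SEMA3D, secreted semaphorins, differed by -1.40 (SE 0.301) and -1.25 (SE 0.264). UNC5C, a netrin receptor, was at 28.3, 25.1 and 34.6 CPM in KO and 14.3, 14.8 and 16.3 CPM in WT (-0.96, SE 0.196). LGR4, an R-spondin receptor, was at 69.2, 66.6 and 64.1 CPM in KO and 35.7, 40.6 and 37.6 CPM in WT (-0.81, SE 0.174). LIFR, the receptor of leukaemia inhibitory factor, differed by -0.84 (SE 0.181) and KITLG, the ligand of KIT, by -1.03 (SE 0.223). RASA2, a Ras GTPase-activating protein, was at 20.5, 21.7 and 15.0 CPM in KO and 9.63, 9.30 and 9.58 CPM in WT (-1.005, SE 0.212). SERTAD2 and SERTAD4 differed by -0.89 (SE 0.190) and -0.95 (SE 0.213).

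**Figure D2:**
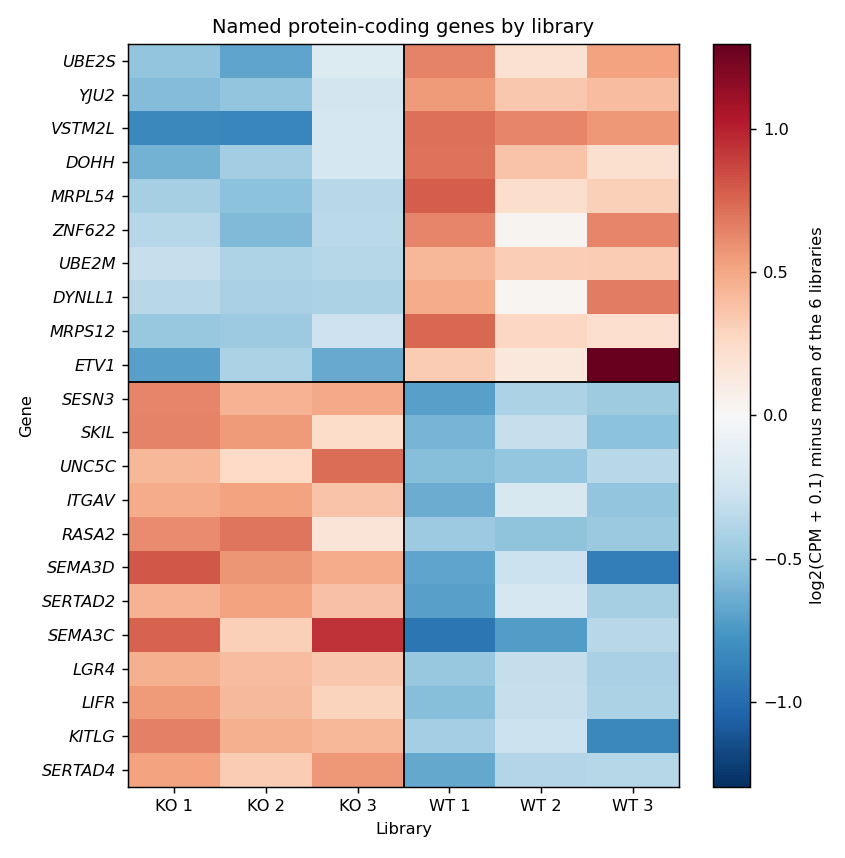
Log2(CPM + 0.1) of the protein-coding genes described above other than ARID1A, minus the mean of the gene over the 6 libraries, in colour, with genes as rows and libraries as columns. The genes were selected for groups that do not overlap and for a small p, which favours little spread within a group. The split between KO and WT is thus given by the selection, and the spread within a group is shaped by it.

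The 2 sets differed in transcript length and base composition, which no part of the selection used. The 12 genes named as higher, ARID1A included, had a median longest transcript of 1603.5 bases and a median GC content of 59.5%, and the 12 lower 6001 bases and 37.8%. All 15073 protein-coding genes with a known length had medians of 3610 bases and 49.3%. The same slope ran through the whole transcriptome. In the quintile of protein-coding genes with the shortest transcripts, the median log2 difference was 0.27 and the 3 WT libraries lay above the 3 KO libraries in 21% of genes. In the quintile with the longest, the median was -0.20 and WT lay below KO in 21.5%. WT replicate 1 stood farthest out: its median against the mean of the 6 libraries was 0.34 in the shortest quintile and -0.33 in the longest, while WT replicates 2 and 3 stayed between -0.03 and 0.07. By GC content the median ran from -0.15 in the lowest quintile to 0.19 in the highest, but the libraries did not split by group. In the quintile of highest GC, KO replicate 3 (0.21) was near WT replicates 1 and 2 (0.26 each), and WT replicate 3 (-0.21) near KO replicates 1 and 2 (-0.22 and -0.24). With offsets for length and GC content in the fit, chosen after the values were seen, edgeR called 1 gene, AL591806.2. UBE2M then differed by 0.43 and LIFR by -0.50, and SESN3 by -0.74. The part of length and GC content in the results below was not tested beyond this fit.

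**Figure D3:**
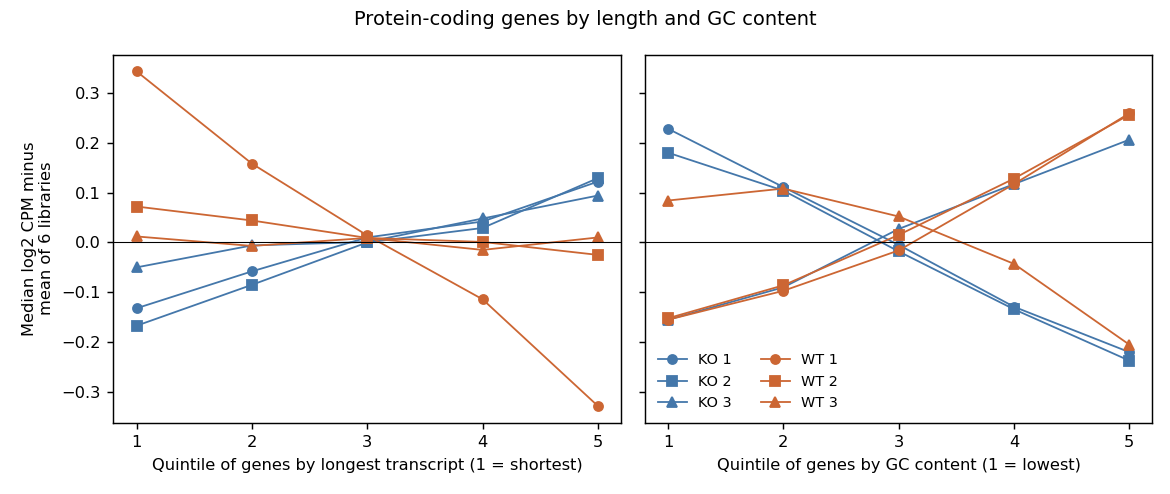
Median log2 CPM minus the mean of the 6 libraries, for protein-coding genes split into quintiles by longest transcript (left) and GC content (right), with 1 line per library. WT replicate 1 runs from 0.34 to -0.33 over length, and over GC content KO replicate 3 runs with WT replicates 1 and 2.

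Gene lists for BAF, its antagonists and the functions of a growing cell were described by how many members had non-overlapping groups. Over all 21189 genes, the 3 WT libraries lay above the 3 KO libraries in 8.7% and below in 9.69%. In edgeR, no member of any of the 28 lists passed the adjusted threshold except ARID1A, against 0.0236% of all genes. DESeq2 called 21 of the other 996 members (16 higher, 5 lower), against 153 of all 21189 genes, and limma-voom called none of them. The DESeq2 calls held 4 of 76 mitochondrial ribosomal protein genes and 3 of 43 G2/M genes. They also held 2 of 31 replication-dependent histone genes and 2 of 43 matrix and integrin genes. Every other list held 0 or 1 of them. Without WT replicate 1 and KO replicate 3, which leaves 2 libraries against 2, 23.7% of all genes lay above and 23.4% below. HOX genes then gave 27 of 38 below and 0 above, and ribosomal protein genes 63 of 79 above and 0 below. Translation factors gave 21 above and 9 below of 41 (51.2% and 22%). Mitochondrial ribosomal proteins gave 38 and 9 of 76 (50% and 11.8%), and proteasome genes 19 and 7 of 49 (38.8% and 14.3%). Their members thus lay on both sides, with a share below that was under that of all genes. Matrix and integrin genes, on 1 side with all 6 libraries, gave 8 above and 15 below of 43 (18.6% and 34.9%). Ribosome biogenesis, G1/S and integrated stress response genes also lay on both sides.

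BAF subunits were mixed in direction. Of 31 tested, ARID1A included, 5 were above in every WT library (16.1%) and 3 below (9.68%), and the median log2 difference was 0.06 against -0.001 for all genes. DPF1, a subunit typical of neurons, was at 12.9, 12.4 and 18.5 CPM in KO and 28.0, 23.5 and 28.6 CPM in WT (0.87, SE 0.213, adjusted p = 0.348, edgeR). ACTL6B, the neuronal actin-like subunit, was below 0.45 CPM in all libraries (1.96, SE 0.738). BCL11A, a zinc finger subunit, differed by -0.56 (SE 0.187). ARID1B, the paralog that substitutes for ARID1A, had overlapping groups: 82.9, 86.6 and 110.0 CPM in KO and 53.8, 94.9 and 74.5 CPM in WT (-0.32, SE 0.226). The sign of its difference changed, to 0.002, without WT replicate 1 and KO replicate 3. ARID2 was at 50.2, 55.3 and 53.1 CPM in KO and 27.1, 44.7 and 38.0 CPM in WT (-0.53, SE 0.209, adjusted p = 0.379, edgeR). The ATPase SMARCA4, named for its role after its value was seen, differed by 0.07 (SE 0.180). Polycomb subunits gave 2 above and 2 below of 31 (6.45% each), with BMI1 at 119, 117 and 91.5 CPM in KO and 78.7, 65.4 and 56.7 CPM in WT (-0.70, SE 0.197) and RING1 0.47 higher (SE 0.186).

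HOX genes pattern the body axis and are classic targets of both Polycomb and Trithorax-like complexes. Of 38 tested, 22 lay below in every WT library (57.9%, against 9.69% of all genes) and 0 above, with a median log2 difference of -0.53. All 38 had a negative difference, from -1.15 to -0.06. None was called in edgeR, and DESeq2 called HOXD10 (adjusted p = 0.0373). By cluster, the WT libraries lay below KO in 6 of 11 HOXA, 5 of 9 HOXB, 6 of 9 HOXC and 5 of 9 HOXD genes, with medians of -0.59, -0.53, -0.50 and -0.50. HOXD10 was at 50.2, 47.6 and 66.3 CPM in KO and 28.4, 35.7 and 31.7 CPM in WT (-0.78, SE 0.198, adjusted p = 0.348, edgeR). HOXB3 was at 42.0, 39.9 and 57.0 CPM in KO and 27.5, 31.1 and 24.8 CPM in WT (-0.74, SE 0.201). HOXA13 and HOXB8 differed by -0.72 (SE 0.212) and -0.71 (SE 0.211).

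The HOX median was not even across libraries. Against the mean of the 6, it was 0.20, 0.08 and 0.53 in KO replicates 1 to 3 and -0.10, -0.13 and -0.63 in WT replicates 1 to 3, so that KO replicate 3 and WT replicate 3 made most of the distance. The list median was -0.37 without WT replicate 3 and -0.67 without WT replicate 1. With length and GC offsets it was -0.69 and 36 of 38 lay below in WT (94.7%, against 10.7% of all genes). Factors of the kidney progenitor gave 8 of 21 below in WT (38.1%) and 0 above, with a median of -0.37 that was -0.23 without KO replicate 3. FOXC1, a forkhead transcription factor, differed by -0.64 (SE 0.226) and TFAP2A by -0.51 (SE 0.212).

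Genes of attachment, and of the YAP pathway, which reads cell contact and stiffness, were set out next. Of 43 matrix and integrin genes, 12 lay below in every WT library (27.9%) and 0 above, with a median of -0.28, and none was called in edgeR. WT lay below in 5 of 11 integrins (median -0.58), 4 of 8 laminins (-0.33) and 2 of 18 collagens (-0.20). DESeq2 called ITGAV and ITGB1. ITGB1, the common beta subunit, was at 139, 122 and 113 CPM in KO and 80.3, 79.99 and 76.4 CPM in WT (-0.66, SE 0.174, adjusted p = 0.348, edgeR). ITGA1 and ITGA6 differed by -0.83 (SE 0.246) and -0.58 (SE 0.185). The list median was -0.11 without KO replicate 3, in which matrix genes stood highest. Of 28 YAP and TEAD regulators and targets, 9 lay below in WT (32.1%) and 0 above, with a median of -0.22. PTPN14, a phosphatase that binds YAP, was at 45.8, 52.2 and 50.2 CPM in KO and 19.7, 37.1 and 26.7 CPM in WT (-0.83, SE 0.229). TEAD1, the DNA-binding partner of YAP, differed by -0.66 (SE 0.212), CRIM1 by -0.57 (SE 0.183) and YAP1 itself by -0.50 (SE 0.182). None of the 28 was called in edgeR or DESeq2. Members of both lists had long transcripts, with medians of 6547 and 4883.5 bases. With length and GC offsets, 15 of 43 matrix and integrin genes lay below in WT (34.9%, against 10.7% of all genes) with a median of -0.21, and 6 of 28 YAP genes (21.4%) with a median of -0.24. The YAP median was -0.10 without WT replicate 1 and KO replicate 3.

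**Figure D4:**
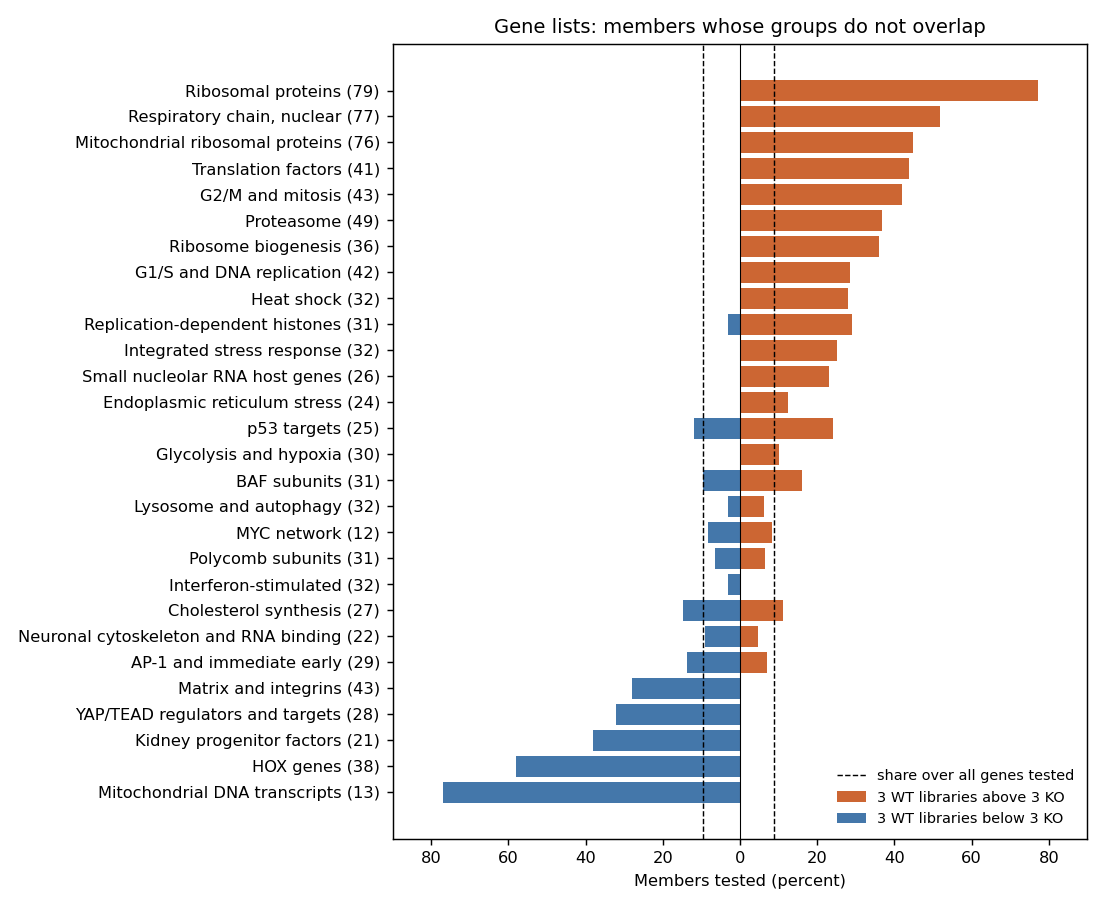
For each of 28 gene lists (number of genes tested in brackets), the percent of members whose 3 WT libraries all lay above (orange, to the right) or all below (blue, to the left) the 3 KO libraries. Dashed lines give the same for all genes tested, 8.7% above and 9.69% below; ribosomal proteins and the nuclear respiratory chain reach farthest to the right, and mitochondrial DNA transcripts and HOX genes farthest to the left.

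Ribosomal protein genes, which build the cytoplasmic ribosome and are expressed in step, gave the largest share of members above. The WT libraries lay above KO in 61 of 79 (77.2%, against 8.7% of all genes), and all 79 had a positive difference, from 0.15 to 0.80 with a median of 0.50. Both subunits took part, with 27 of 32 small subunit genes (median 0.53) and 34 of 47 large subunit genes (median 0.48). RPS27 was at 209, 216 and 244 CPM in KO and 461, 317 and 321 CPM in WT (0.72, SE 0.193, adjusted p = 0.348, edgeR). RPS26 was at 219, 219 and 215 CPM in KO and 403, 282 and 318 CPM in WT (0.62, SE 0.181). RPL13A differed by 0.62 (SE 0.181). WT replicate 1 was the highest library in each of these 3 genes, by a wide margin. The list median against the mean of the 6 libraries was -0.22, -0.29 and -0.25 in KO and 0.51, 0.02 and 0.19 in WT. Without WT replicate 1 the list median was 0.36, and with length and GC offsets it was 0.39 with 66 of 79 above in WT (83.5%, against 10.5% of all genes). Many ribosomal protein genes have processed pseudogenes with near-identical sequence, and reads shared with these were assigned by rules not given here, so single values are uncertain.

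Transcripts of ribosomal protein genes start in a run of pyrimidines, the 5′ terminal oligopyrimidine tract, through which mTOR controls their translation. The stretches below, from 40 bases before to 30 after the annotated start, show the start region of the 4 members with the smallest p whose promoter was in the RefSeq table (GRCh38.p14, plus strand), and capitals mark CTTTCC. In RPS27, RPL13A and RPS12 the annotated start opens such a run, while in RPS26 the annotated start is a purine. RPS12, the last of them, fell outside the rule for named genes and differed by 0.66 (SE 0.195).
RPS27, chr1:153990722-153990791: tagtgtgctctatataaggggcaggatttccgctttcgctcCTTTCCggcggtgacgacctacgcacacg
RPS26, chr12:56041878-56041947: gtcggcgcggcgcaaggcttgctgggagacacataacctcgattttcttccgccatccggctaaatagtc
RPL13A, chr19:49487568-49487637: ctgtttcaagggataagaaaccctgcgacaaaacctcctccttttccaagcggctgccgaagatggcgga
RPS12, chr6:132814529-132814598: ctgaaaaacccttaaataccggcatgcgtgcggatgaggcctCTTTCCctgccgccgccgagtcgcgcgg
CTTTCC, searched on both strands from 30 bases before to 50 after the start, was in 22 of 63 ribosomal protein promoters in the table (34.9%), always on the sense strand, against 7.12% of all 27305 promoters (3.66% on the sense strand). CTCTTTCC, which contains it, was in 14.3% against 0.809%, CTTTTCC in 19% against 2.16%, and TTTCCG, which can overlap CTTTCC, in 22.2% against 3.4%. TGACTCA, the AP-1 motif, was in 0 of 63 against 1.12%. For 68 mitochondrial ribosomal promoters the share with CTTTCC was 4.41%, and for 20 HOX promoters it was 10%. A match is a description of these letters in the window and not a site.

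Other parts of the protein synthesis machinery lay on the same side. Translation factors gave 18 of 41 above in WT (43.9%) and 0 below, with a median of 0.30 that was 0.16 without WT replicate 3. EIF6, an anti-association factor of the large subunit, differed by 0.68 (SE 0.201), EIF2B2 by 0.55 (SE 0.185), EIF1 by 0.51 (SE 0.173) and EIF3I by 0.44 (SE 0.167). Ribosome biogenesis factors gave 13 of 36 (36.1%) with a median of 0.19, led by BYSL (0.69, SE 0.170, adjusted p = 0.348, edgeR), and that median was 0.07 without KO replicate 3. Host genes of small nucleolar RNAs gave 6 of 26 (23.1%) with a median of 0.34 that was 0.21 with offsets. RACK1, a ribosome-bound scaffold whose introns hold small nucleolar RNAs, differed by 0.46 (SE 0.145) and SNHG9 by 0.77 (SE 0.274).

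Nuclear and mitochondrial genes of the respiratory chain lay on opposite sides. Of 77 nuclear genes, 40 lay above in every WT library (51.9%) and 0 below. Their median of 0.41 was 0.26 without WT replicate 1 and 0.28 with length and GC offsets. The WT libraries lay above KO in 19 of 38 complex I genes (median 0.40), 2 of 4 of complex II (0.25), 6 of 9 of complex III (0.49), 4 of 10 of complex IV (0.45) and 9 of 15 of ATP synthase (0.40). NDUFA2 was at 34.1, 31.1 and 34.8 CPM in KO and 68.7, 49.0 and 47.6 CPM in WT (0.73, SE 0.199, adjusted p = 0.348, edgeR). NDUFB7, NDUFA13 and COX7B differed by 0.80 (SE 0.233), 0.70 (SE 0.209) and 0.65 (SE 0.193). Mitochondrial ribosomal proteins gave 34 of 76 above (44.7%) and 0 below, with a median of 0.43. That median was 0.30 without WT replicate 1 and 0.29 with length and GC offsets. MRPL38 was at 75.5, 69.6 and 87.2 CPM in KO and 149, 119 and 113 CPM in WT (0.71, SE 0.189).

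The 13 protein-coding transcripts of mitochondrial DNA all had a negative difference, from -0.75 to -0.25, and 10 of 13 lay below in every WT library (76.9%). MT-ATP8 was at 919, 786 and 590 CPM in KO and 421, 508 and 438 CPM in WT (-0.75, SE 0.191, adjusted p = 0.348, edgeR). MT-ATP6, a subunit of the same ATP synthase, was at 4492, 4278 and 3718 CPM in KO and 2674, 3030.0 and 3080 CPM in WT (-0.51, SE 0.145). MT-ND2 and MT-CO3 differed by -0.48 (SE 0.155) and -0.42 (SE 0.143). The list median against the mean of the 6 libraries was 0.27, 0.14 and 0.27 in KO and -0.40, -0.13 and -0.08 in WT. Their median length is 784 bases, and with length and GC offsets the list median was -0.57, against -0.43 in the main fit. The list median was -0.34 without WT replicate 1, and -0.31 without WT replicate 1 and KO replicate 3. MT-ATP8 and MT-ATP6 overlap on the same strand, so reads in the overlap could be given to either.

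**Figure D5:**
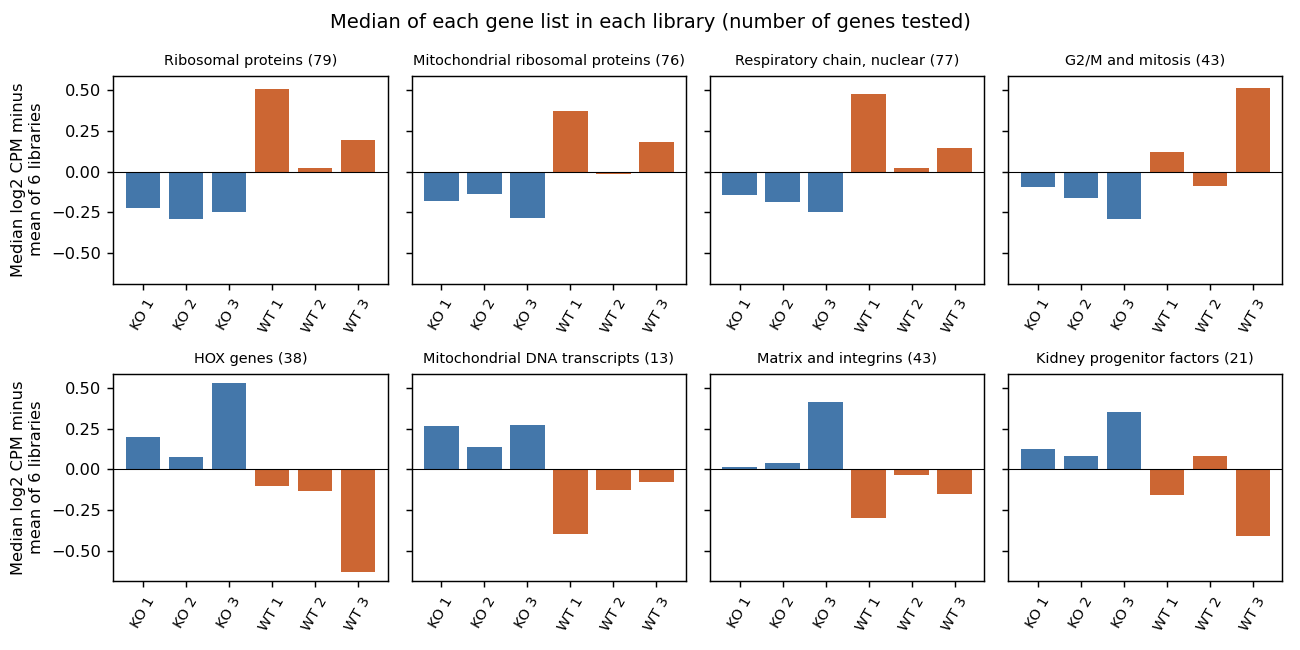
Median log2 CPM minus the mean of the 6 libraries for 8 gene lists, with 1 bar per library and KO in blue and WT in orange. WT replicate 1 has the highest bar for ribosomal proteins (0.51) and the nuclear respiratory chain (0.48), WT replicate 3 the highest for G2/M genes (0.51) and the lowest for HOX genes (-0.63).

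Proteasome genes gave 18 of 49 above in WT (36.7%) and 0 below, with a median of 0.34. Most of the count came from the catalytic core's beta subunits (7 of 10) and the regulatory particle (4 of 6 ATPases, 6 of 14 other subunits), while 0 of 7 alpha subunits had non-overlapping groups. PSMB6 was at a mean of 84.9 CPM (SD 10.7, n = 3) in KO and 134 CPM (SD 20.9, n = 3) in WT, a difference of 0.66 (SE 0.190). PSMD8, PSMC3 and PSMB4 differed by 0.59 (SE 0.174), 0.57 (SE 0.171) and 0.59 (SE 0.179). The list median was 0.21 without WT replicate 1, and 0.13 without WT replicate 1 and KO replicate 3.

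Cell cycle genes stood highest in WT replicate 3. Of 43 genes of G2/M and mitosis, 18 lay above in every WT library (41.9%) and 0 below, with a median of 0.34, which was 0.17 without WT replicate 3. CENPA, the centromeric histone H3, was at 26.1, 24.2 and 27.1 CPM in KO and 43.5, 35.97 and 49.5 CPM in WT (0.74, SE 0.188, adjusted p = 0.348, edgeR). PTTG1, securin, was at 64.4, 55.1 and 56.4 CPM in KO and 108, 72.4 and 129 CPM in WT (0.81, SE 0.221). UBE2C and CKS2 differed by 0.71 (SE 0.199) and 0.72 (SE 0.223). Genes of G1/S and replication gave 12 of 42 (28.6%) with a median of 0.19. MCM7, of the replicative helicase, was at a mean of 544 CPM (SD 33.1, n = 3) in KO and 732 CPM (SD 19.2, n = 3) in WT (0.43, SE 0.154), and PCNA differed by 0.48 (SE 0.180). Replication-dependent histone genes gave 9 of 31 above (29%) and 1 below, with a median of 0.23 that was 0.01 with length and GC offsets, 0.07 without WT replicate 1 and 0.47 without KO replicate 3. Their mRNAs have no poly(A) tail and how RNA was selected is not stated.

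Heat shock genes gave 9 of 32 above in every WT library (28.1%) and 0 below, with a median of 0.35 that was 0.21 without WT replicate 3. DNAJB1, an HSP40 co-chaperone, was at 48.5, 53.4 and 47.5 CPM in KO and 73.2, 67.6 and 154 CPM in WT (0.98, SE 0.282, adjusted p = 0.348, edgeR). HSPA8, the constitutive HSC70, was at 1127, 1213 and 991 CPM in KO and 1474, 1407 and 2589 CPM in WT (0.72, SE 0.224). HSPA1A, the inducible HSP70, was at 195, 169 and 299 CPM in KO and 362, 305 and 434 CPM in WT (0.73, SE 0.230). In these 3 genes WT replicate 3, with the most ARID1A, was the highest library. Without it DNAJB1 differed by 0.48, HSPA8 by 0.36 and HSPA1A by 0.58. DNAJB5 differed by 0.72 (SE 0.219). Integrated stress response genes gave 8 of 32 above (25%) and 0 below, with a median of 0.20 that was 0.12 without WT replicate 1. ATF4, their central factor, was at 786, 828 and 657 CPM in KO and 1191, 994 and 1176 CPM in WT (0.57, SE 0.165), and SARS1 and ATF5 differed by 0.62 (SE 0.181) and 0.61 (SE 0.188). GDF15, a secreted stress factor shared by the p53 list, was at 2.43, 2.16 and 4.26 CPM in KO and 9.74, 5.67 and 5.54 CPM in WT (1.23, SE 0.334). Targets of p53, which large T antigen binds in this line, gave 6 above (24%) and 3 below (12%) of 25, with AEN 0.58 higher (SE 0.180).

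STUB1, the chaperone-linked ubiquitin ligase knocked down elsewhere in the study, was at 181, 163 and 187 CPM in KO and 341, 274 and 193 CPM in WT (0.61, SE 0.212, adjusted p = 0.359, edgeR). The groups did not overlap, but KO replicate 3 and WT replicate 3 were close.

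The remaining lists gave 0% to 12.5% of members above and 0% to 14.8% below, against 8.7% and 9.69% of all genes. Interferon-stimulated genes gave 0 above and 1 below of 32. Glycolysis and hypoxia genes gave 3 above and 0 below of 30, MYC network genes 1 and 1 of 12, and lysosome and autophagy genes 2 and 1 of 32. AP-1 and immediate early genes gave 2 above and 4 below of 29, and the 2 above were FOSB (1.17, SE 0.300) and EGR4 (2.21, SE 0.575). Cholesterol synthesis genes gave 3 above and 4 below of 27, with SCD, the stearoyl-CoA desaturase, at a mean of 2063 CPM (SD 247, n = 3) in KO and 1281 CPM (SD 187, n = 3) in WT (-0.69, SE 0.168). Endoplasmic reticulum stress genes gave 3 above and 0 below of 24. Genes of the neuronal cytoskeleton and RNA binding gave 1 above and 2 below of 22, with CELF3 1.10 higher (SE 0.339).

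The levels of the named genes were set beside 2 mutant groups with high ARID1A to see whether the WT level differed from theirs. For V2084D minus WT, 10 of 21110 genes were called (0.0474%), and for G2087E minus WT, 7 of 20971 (0.0334%). Both comparisons share the WT libraries with each other and with the main comparison. Of the genes named by the rule, those called were AL591806.2, AL158151.3 and HSPA1A in V2084D and AL158151.3 and HSPA1A in G2087E. HSPA1A was 2.39 higher in V2084D than in WT (SE 0.296, adjusted p = 0.00340, edgeR) and 2.37 higher in G2087E (SE 0.235, adjusted p = 0.00469, edgeR). For ARID1A itself the differences were 1.43 (SE 0.647) and 1.21 (SE 0.701), not called. SESN3 differed by 0.42 (SE 0.240) and 0.37 (SE 0.179), HOXD10 by 0.31 (SE 0.192) and 0.27 (SE 0.161), RPS27 by -0.37 (SE 0.209) and -0.34 (SE 0.182), and UBE2S by -0.58 (SE 0.219) and -0.63 (SE 0.172). For these 4 genes the means of both mutant groups lay between those of WT and KO, and the differences from WT were not called (adjusted p = 0.9998 in each, edgeR). The 4 were named for a small p between WT and KO in these same libraries. That selection favours WT and KO means that lie far apart, so a middle place of another group is no separate result. In G2087R replicates 1 and 2, with ARID1A near the KO level, ITGAV was at 65.2 and 58.5 CPM and SKIL at 28.5 and 25.8 CPM, with all 18 libraries scaled together. On that scale ITGAV spanned 75.7 to 85.6 CPM in KO and 38.4 to 51.9 CPM in WT. SKIL spanned 43.9 to 59.5 CPM in KO and 25.1 to 31.0 CPM in WT. SKIL was thus at the WT level in the G2087R libraries with little ARID1A, while some other named genes were near the KO level. UNC5C was at 23.6 and 27.8 CPM there (23.95 to 32.5 in KO, 13.8 to 15.6 in WT). CRIM1 was at 50.3 and 51.8 CPM (47.6 to 52.1 in KO, 30.2 to 39.1 in WT). Whether these levels follow ARID1A was not tested.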

How the data were processed

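Libraries were made from 500 ng of total RNA with the NEBNext Ultra II kit, per the labels. The deposited table holds raw counts per gene made by the authors on GRCh38, and the submitters' processing notes name edgeR; the aligner, counter, annotation and strand setting are not given in the sources used here. Groups came from sample titles, and all columns matched a sample. The main test was edgeR 4.0.16 in R 4.3.3 (TMM scaling, quasi-likelihood F test) on the 6 KO and WT libraries alone, because other groups of the study hold libraries that differ strongly from each other. Genes needed 10 counts in 3 libraries, and p was adjusted by Benjamini-Hochberg over 21189 genes with a threshold of 0.05. The SE of a log2 difference was its absolute value over the square root of F, and a prior count of 2 entered log2 CPM. Alternatives used DESeq2 1.42.0, limma 3.58.1 and the settings listed at the end. Positions, transcript length and GC content came from GENCODE 29, the last 2 known for 98.06% of genes tested. The method was tested on simulated counts.

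Named were ARID1A, 12 protein-coding genes per direction, up to 4 members of each list by p, ARID1B, ARID2, STUB1 and called transcripts of other kinds. The 12 were called genes first and then those of smallest unadjusted p, given a mean log2 CPM of 1 or more and groups that did not overlap. The comparison, gene lists and rules were chosen with earlier results of these data known, so they are not independent of them. Some genes that the rule names are not reported here.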

Additional observations from a re-analysis of the deposited data

How the results depend on the processing

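The count of 5 called genes was 5 with RLE size factors, with library sizes without ARID1A and with a log2 difference of at least 1, and 4 without a filter. It was 153 with DESeq2, 1 with limma-voom, 3 with a filter of 1 CPM in 3 libraries, 0 with all 18 libraries of 293T in the fit (2545 at an unadjusted p below 0.05) and 2 with 16 of them, without G2087R replicates 1 and 2. Leaving out 1 library gave 0 to 8 calls, with 0 without KO replicate 3, 8 without KO replicate 1 and 1 without WT replicate 2 or 3. Settings chosen after seeing the data gave 1 call with length and GC offsets and 1 without WT replicate 1 and KO replicate 3 together. ARID1A lay between 5.62 and 7.92 over 17 alternatives, between 5.62 and 7.92 also when 1 library was left out, and lost its call with all 18 libraries (7.46, adjusted p = 0.344), without KO replicate 3, with offsets (7.54, adjusted p = 0.0578) and without WT replicate 1 and KO replicate 3 (7.79, adjusted p = 0.261). The cause was not tested. Of the named genes, MNT (main value -0.24) changed sign without KO replicate 3 (0.0024) and without WT replicate 1 and KO replicate 3 (0.089), with -0.36 without KO replicate 2 as its other extreme. ARID1B changed sign without WT replicate 1 and KO replicate 3 (0.0024), and its other extreme was -0.52 without WT replicate 2. Deviations from the group mean correlated at 0.018, -0.119 and -0.163 between same-numbered KO and WT libraries. Between libraries of unlike number the correlations ran from -0.201 to 0.229. With 3 libraries per group, these values cannot tell whether the numbers pair the samples. With the replicate number as a block, 4 genes were called, ARID1A among them (6.54, adjusted p = 0.0206, edgeR). Depth limits the rare called transcripts most, with at most 244 counts in any of the 6 libraries.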
